A study of Mus musculus with 12 samples.

Results

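The MHC class I and peptide loading genes described here are 10 genes chosen by symbol: H2-K1, H2-D1, B2m, Tap1, Tap2, Tapbp, Nlrc5, Erap1, Calr and Pdia3. They are 10 of the 24421 gene symbols counted in each library, and all 10 were among the 11727 genes with enough counts to be tested. RNA sequencing had been done on CD8+ T cells, the cytotoxic lymphocytes, of spleens of C57BL/6 mice. One group was treated with DMSO, the solvent alone (6 libraries, named DMSO here), and the other with an inhibitor of EZH2 (6 libraries, named EZH2i). EZH2 methylates lysine 27 of histone H3 within Polycomb repressive complex 2, a mark of silenced genes, and the series sets gene expression under its inhibition against the control. No genotype is given beyond the strain. The sources used here do not give the inhibitor's name, dose and duration, the age and sex of the mice, or whether mice or cultured cells were treated. They also do not say whether each library had its own mouse or culture, and the spread that the p-values rest on may be technical.

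MHC class I molecules carry short peptides from inside a cell to its surface, where CD8+ T cells read them. A heavy chain pairs with B2m in the endoplasmic reticulum (ER), the transporter made of Tap1 and Tap2 brings peptides in from the cytosol, and Tapbp, Calr and Pdia3 hold the empty molecule at the transporter until a peptide fits. Erap1 trims peptides inside the ER, and Nlrc5 is the transactivator that acts at class I promoters. T cells carry class I molecules themselves and raise them in response to interferons, so these genes were measured here in the cells that normally read the complex.

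Library totals ran from 17215483 to 28092434 counts in DMSO and from 19610258 to 31206228 in EZH2i, and the 10 genes together took 0.890% to 1.05% of the counts of a library. Every member had at least 3413 counts in every library, and the lowest lay at the 91.2 percentile of tested genes by level. The library numbered 6 in the labels stood apart from the other 5 in both groups along the leading principal components, which held 45.2% and 33.8% of the variance. The fits of the members and the counts over pathway lists are therefore given with and without number 6. The T cell markers were high in every library, with Cd8a at 1091 ± 31.1 CPM (counts scaled to a common library size; SD, n = 6) in DMSO and 885 ± 47.3 in EZH2i, and Cd4 at 0.0887 and 0.0983 CPM. These are bulk libraries, in which fewer cells of a type and less RNA per cell cannot be told apart.

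Positions are those of GENCODE M21 on GRCm38. Of the 10 genes, 5 lie on chromosome 17 in the MHC region: Tapbp (chr17:33915899-33929292, plus strand), H2-K1 (chr17:33996017-34000347, minus strand), Tap1 (chr17:34187553-34197225, plus strand), Tap2 (chr17:34203527-34216321, plus strand) and H2-D1 (chr17:35262730-35267499, plus strand). From the start of Tapbp to the end of Tap2 the span is 300423 bases. Pdia3 (chr2:121413775-121438687) and B2m (chr2:122147686-122153083) lie on the plus strand of chromosome 2, Calr (chr8:84841850-84846934, minus strand) and Nlrc5 (chr8:94434356-94527272, plus strand) on chromosome 8, and Erap1 (chr13:74639568-74693201, plus strand) on chromosome 13.

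The promoters of the heavy chains and of B2m carry the elements that make these genes a textbook case of joint control: an enhancer with an NF-kappaB site, an interferon-stimulated response element, and a block of boxes that RFX, CREB and NF-Y proteins occupy together and to which Nlrc5 is recruited. RefSeq promoter windows of GRCm38.p6, from 250 bases before to 50 bases from the start site on, were at hand for 8 of the 10 members. The stretches below show where the matching letters lie in a heavy chain gene and in B2m. Both run from 200 to 21 bases before the start site, 5′ to 3′ on the gene's strand, at chr17:34000368-34000547 (minus strand) for H2-K1 and chr2:122147487-122147666 (plus strand) for B2m. Capitals mark matches, on either strand, to GGGA with any 4 bases and CC after it (an NF-kappaB type site), AANNGAAA (the core of the interferon element), TGACG (the core of a CREB site) and CCAAT (the NF-Y box).
H2-K1: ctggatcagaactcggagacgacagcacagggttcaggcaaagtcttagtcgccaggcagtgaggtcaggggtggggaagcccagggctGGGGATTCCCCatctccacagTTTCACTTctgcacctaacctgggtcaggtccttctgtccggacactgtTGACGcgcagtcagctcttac
B2m: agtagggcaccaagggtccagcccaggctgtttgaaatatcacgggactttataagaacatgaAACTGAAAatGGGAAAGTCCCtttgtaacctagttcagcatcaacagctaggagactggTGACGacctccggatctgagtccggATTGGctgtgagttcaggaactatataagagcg
The order of the NF-kappaB type and interferon matches is opposite in these 2 genes. In H2-K1 the CCAAT letters lie outside the printed stretch, at bases -16 to -12 and 9 to 13 relative to the start site.

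Over the 300-base windows, CCAAT was found in 7 of the 8 members with a window and in 37.4% of 32851 RefSeq promoters. TGACG was found in 5 members and in 20.8% of promoters, the NF-kappaB type letters in 4 members and 20.7%, and AANNGAAA in 5 members and 23.9%. All 4 motifs together were in 3 members, H2-K1, H2-D1 and B2m, and in 94 promoters in all, or 0.286%. A match is a run of letters and not a measured site. The next lines show how alike the enhancer part is in the heavy chain genes H2-K1 (chr17:34000430-34000458, minus strand) and H2-D1 (chr17:35262923-35262951, plus strand) and in the related class I gene H2-Q4 (chr17:35379444-35379471, plus strand), with the NF-kappaB type and interferon matches in capitals.
H2-K1: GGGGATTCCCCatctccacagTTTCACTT
H2-D1: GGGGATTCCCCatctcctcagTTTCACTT
H2-Q4: GGGATTTCCCatctccccagTTTCACTT
H2-K1 and H2-D1 share 28 of these 29 bases and differ by A18T, counted from 1 at the 5′ end of the stretch, with H2-K1 as the reference. Over their best local alignment the windows of H2-K1 and H2-D1 were 90.4% identical (228 columns), those of H2-K1 and H2-Q4 81.7% (229 columns), and those of H2-D1 and H2-Q4 78.7% (300 columns).

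The 10 genes lay on both sides of no change in these cells. H2-K1, H2-D1, Tap1 and Nlrc5 had higher fitted means in EZH2i, and B2m, Tap2, Tapbp, Erap1, Calr and Pdia3 had lower ones. The differences were small: the fitted log2 fold changes of EZH2i against DMSO ran from -0.28 for Calr to 0.22 for H2-K1, with a median of -0.19 beside -0.01 over all tested genes. In the quasi-likelihood test of edgeR, with p-values adjusted over all 11727 genes by the Benjamini-Hochberg method, 0 of the 10 passed an adjusted p of 0.05 in either direction, where 13.3% of all tested genes were called higher and 6.05% lower. At an unadjusted p under 0.05 there were 3 members, H2-K1, Tap2 and Tapbp, and 3805 of all tested genes. With upper-quartile scaling, which called 15.3% of all genes higher and 2.96% lower, H2-K1 alone of the members passed. DESeq2 (14.8% and 7.75% of genes) called H2-K1 higher and Tap2 lower, and RLE scaling (12.8% and 6.88%) called Tap2 lower.

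The count of members called changed with the replicate number as a block and with number 6 left out. The groups share replicate numbers 1 to 6, and the deviations of same-numbered libraries correlated, most of all those numbered 6. Only for numbers 2, 4 and 6 was the same-numbered library the best match in both directions. DMSO library 1 correlated best with EZH2i library 3, and DMSO library 5 with EZH2i library 2. What the numbers mark is not given. The calls with the block and the counts over numbers rest on an assumed pairing. With the number as a block, 2 members passed as higher (H2-K1, Nlrc5; background 24.7% of genes) and 5 as lower (Tap2, Tapbp, Erap1, Calr, Pdia3; background 24.3%). Without both libraries numbered 6, 1 member passed as higher (H2-K1; background 23.9%) and the same 5 as lower (background 20.9%), and so it was with number 6 left out and the block kept (background 26.0% and 24.2%). Leaving out DMSO library 6 alone gave Tap2 and Tapbp as lower (background 14.5% of genes higher and 6.4% lower), and leaving out EZH2i library 6 alone gave H2-K1 as higher and Erap1 and Pdia3 as lower (background 19.2% and 15.4%). Between same-numbered libraries, H2-K1 and Nlrc5 were higher and Tap2, Tapbp, Erap1, Calr and Pdia3 lower in EZH2i in all 6 numbers, as were 21.2% and 19.2% of all tested genes. With all 12 libraries the ranges of DMSO and EZH2i overlapped for every member, where 10.2% of tested genes did not overlap. Without number 6 they were apart for H2-K1 (higher; background 17.1%) and for Tap2, Tapbp and Erap1 (lower; background 11.7%).

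**Figure D1:**
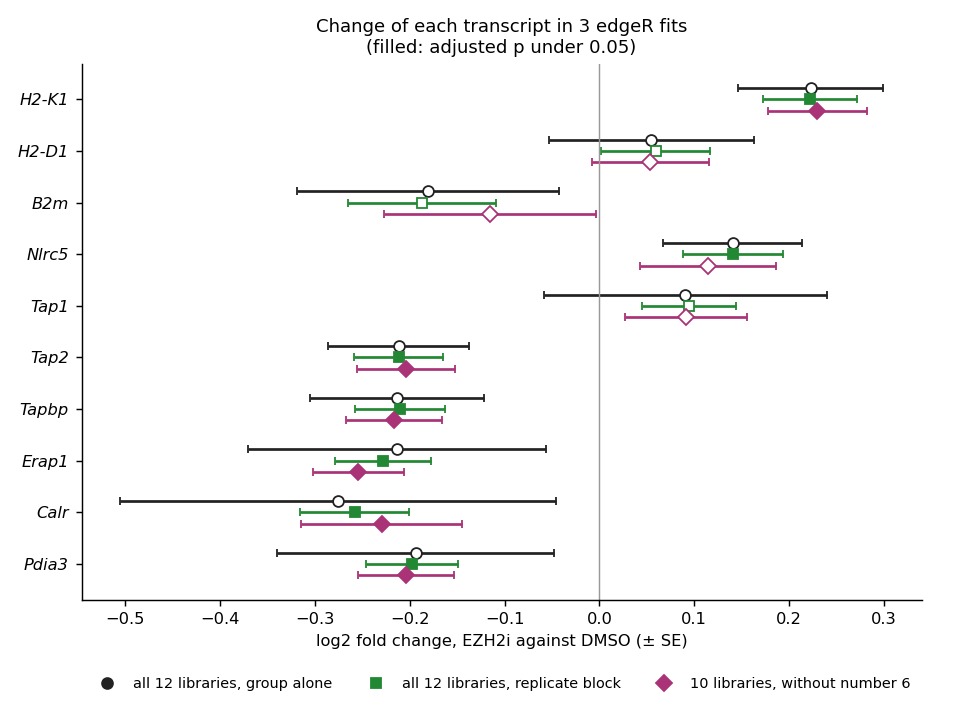
Log2 fold change of EZH2i against DMSO for the 10 genes (horizontal axis), with bars of 1 SE, from 3 edgeR fits: all 12 libraries, all 12 with the replicate number as a block, and without the libraries numbered 6. Filled points passed an adjusted p of 0.05. No point of the first fit is filled, 7 are with the block and 6 without number 6; in the first fit Calr has the widest bar (SE 0.23) and Nlrc5 the narrowest (0.073).

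The heavy chains H2-K1 and H2-D1, the peptide-binding subunits, differed in how they stood between the groups. H2-K1 had a lowest, median and highest level of 1871, 2283 and 2378 CPM in DMSO and of 2156, 2671 and 2754 CPM in EZH2i. The lowest value of each group was library 6, and the other 5 EZH2i libraries (2547 to 2754 CPM) lay above all other DMSO libraries (2170 to 2378 CPM). The means were 2217 ± 183 and 2587 ± 223 CPM (SD, n = 6 each), the EZH2i mean being 16.7% higher. The log2 fold change was 0.22 (SE 0.077), with an edgeR adjusted p of 0.0595 with all libraries. That p became 0.00173 with the block, 0.00196 without number 6 and 0.00844 without EZH2i library 6 alone. Without DMSO library 6 alone the log2 fold change was 0.18 (edgeR adjusted p = 0.0958). Leaving out any other single library gave no call either (adjusted p up to 0.124).

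H2-D1 ran from 602 through a median of 815 to 907 CPM in DMSO and from 641 through 854 to 914 CPM in EZH2i. The groups overlapped almost fully, with EZH2i higher in 4 of the 6 numbers. Its means of 795 ± 114 and 826 ± 96.3 CPM gave a log2 fold change of 0.05 (SE 0.11, edgeR adjusted p = 0.771; 0.414 with the block). Without number 6 it was 0.05 as well (edgeR adjusted p = 0.504). Without DMSO library 6 the log2 fold change was -0.02. The 2 heavy chains share sequence with each other and with H2-Q genes: 3.10% of the 75-base windows of H2-K1 transcripts and 5.403% of those of H2-D1 occur in another gene, so reads from those windows cannot be told apart.

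B2m, the light chain that every class I heavy chain needs, was the most abundant member. It ran from 2646 through 3829 to 4188 CPM in DMSO and from 2366 through 3329 to 3882 CPM in EZH2i. It was lower in EZH2i in 5 of the 6 numbers and higher in number 4, whose DMSO library held the lowest DMSO value. The means of 3692 ± 576 and 3256 ± 610 CPM gave a log2 fold change of -0.18 (SE 0.14, edgeR adjusted p = 0.407). That p became 0.0583 with the block and 0.422 without number 6, so B2m passed in none of these fits.

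Nlrc5, the class I transactivator, ran from 365 through 381 to 459 CPM in DMSO and from 370 through 440 to 461 CPM in EZH2i. DMSO library 4, at 459 CPM, lay well above the other 5 DMSO libraries (365 to 386 CPM), and 4 of the 6 EZH2i libraries lay above 430 CPM. The means were 390 ± 34.3 and 430 ± 33.5 CPM, and the log2 fold change was 0.14 (SE 0.073, edgeR adjusted p = 0.208). With the block the adjusted p was 0.0364. EZH2i was higher in 6 of 6 numbers, though in number 1 by 0.00056 and in number 4 by 0.0061 on the log2 CPM scale. Without number 6 the log2 fold change was 0.11, and the edgeR adjusted p was 0.205, or 0.0755 with the block.

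**Figure D2:**
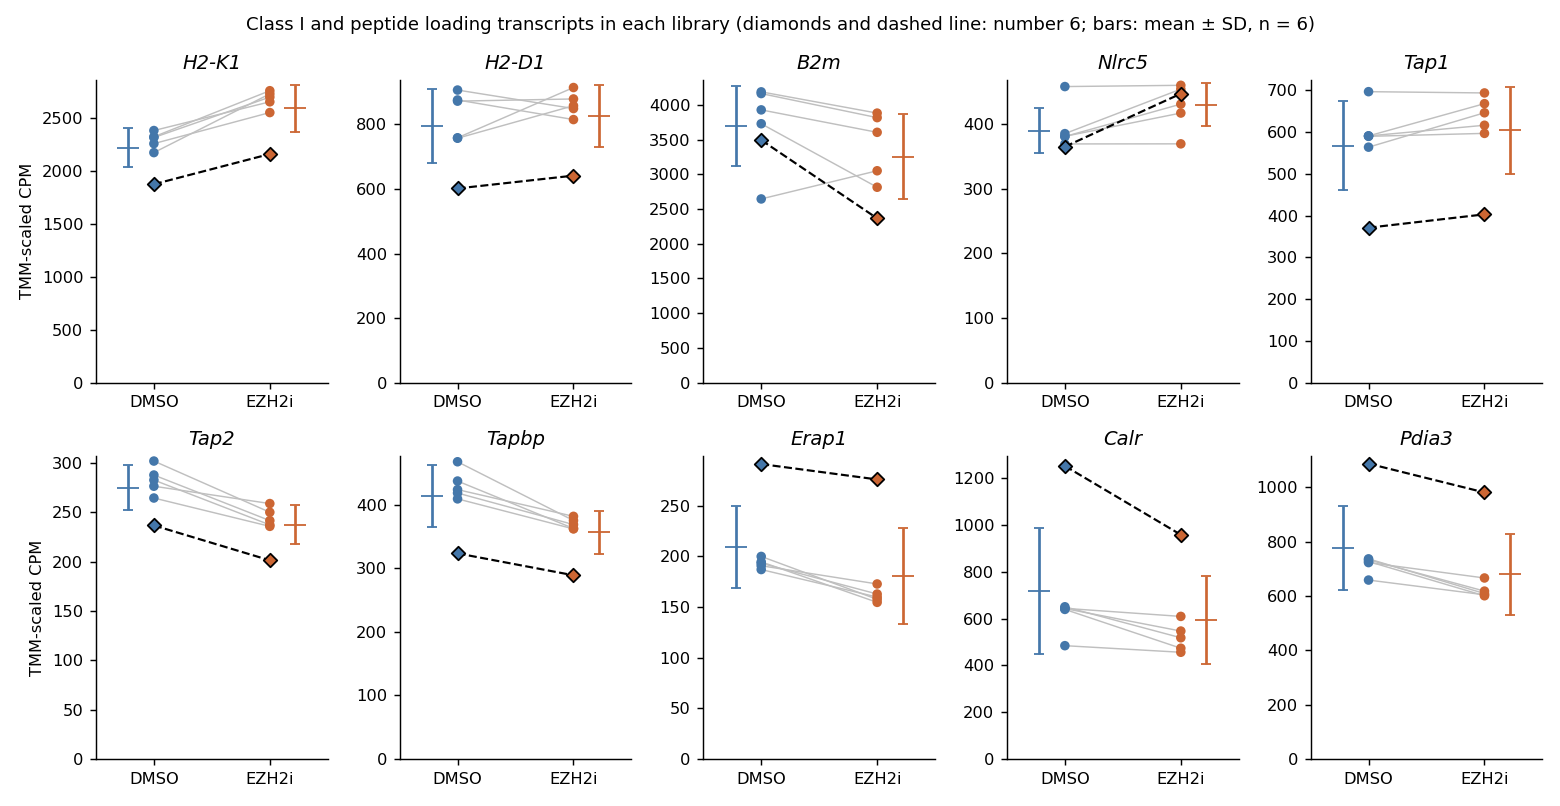
TMM-scaled CPM (vertical axis) of each of the 10 genes in the 6 DMSO and 6 EZH2i libraries, 1 panel per gene; points are libraries, lines join same-numbered ones, diamonds are number 6, and bars give the mean and SD of the 6 libraries. Library 6 is the lowest point of both groups for H2-K1, H2-D1, Tap1, Tap2 and Tapbp, and the highest of both for Erap1, Calr and Pdia3.

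The transporter subunits Tap1 and Tap2, which form a heterodimer, stood on opposite sides. Tap1 ran from 371 through 591 to 697 CPM in DMSO and from 403 through 632 to 694 CPM in EZH2i. It was higher in EZH2i in 5 of the 6 numbers, with ranges that overlapped. Its means of 567 ± 107 and 604 ± 105 CPM gave a log2 fold change of 0.09 (SE 0.15, edgeR adjusted p = 0.723; 0.126 with the block; 0.267 without number 6). Without DMSO library 6 the log2 fold change was -0.01.

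Tap2 ran from 237 through 280 to 302 CPM in DMSO and from 201 through 239 to 259 CPM in EZH2i. It was lower in EZH2i in 6 of 6 numbers, and without number 6 the highest EZH2i library (259 CPM) lay below the lowest DMSO library (265 CPM). The means were 275 ± 22.5 and 238 ± 19.7 CPM, a difference of -13.7%, for a log2 fold change of -0.21 (SE 0.075, edgeR adjusted p = 0.0646). Tap2 passed with the block (0.00168), without number 6 (0.00398) and without DMSO library 6 alone (0.0198). Without EZH2i library 6 alone it did not pass (-0.17, edgeR adjusted p = 0.0604). Of its exon bases, 14.1% overlap an antisense gene, Gm15821, and the strand setting of the counting is not given in the sources used here.

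Tapbp, or tapasin, which bridges the heavy chain to the transporter and edits its peptides, ran from 323 through 421 to 467 CPM in DMSO and from 289 through 366 to 381 CPM in EZH2i. EZH2i was lower in 6 of 6 numbers, and without number 6 the ranges were apart (409 to 467 against 362 to 381 CPM). The means were 413 ± 48.4 and 356 ± 33.9 CPM, for a log2 fold change of -0.21 (SE 0.092, edgeR adjusted p = 0.126). That p became 0.00185 with the block, 0.00242 without number 6 and 0.0196 without DMSO library 6 alone. Without EZH2i library 6 alone Tapbp did not pass (-0.16, edgeR adjusted p = 0.134). Of its exon bases, 24.9% overlap the antisense gene Gm19412 and 4.11% overlap Zbtb22 on the same strand.

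Erap1, the ER aminopeptidase, ran from 187 through 194 to 291 CPM in DMSO and from 155 through 161 to 276 CPM in EZH2i. In each group library 6 held the highest value, and the other 5 libraries lay between 187 and 200 CPM in DMSO and between 155 and 173 CPM in EZH2i. With all libraries the means were 209 ± 40.2 and 180 ± 47.1 CPM, for a log2 fold change of -0.21 (SE 0.16, edgeR adjusted p = 0.389). Without number 6 they were 193 ± 4.79 and 161 ± 6.96 CPM (SD, n = 5 each), with a log2 fold change of -0.25 and an adjusted p of 0.000398. The block gave 0.00164. Leaving out DMSO library 6 alone gave -0.10 (adjusted p = 0.671) and leaving out EZH2i library 6 alone gave -0.38 (0.0165). Its exons overlap those of Cast on the opposite strand over 11.5% of their bases.

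Calr and Pdia3 are the general ER chaperone and the thiol oxidoreductase of the loading complex, and both also serve other glycoproteins. Calr ran from 485 through 644 to 1253 CPM in DMSO and from 456 through 533 to 959 CPM in EZH2i. Library 6 held the highest value in each group, and the other libraries reached 651 CPM in DMSO and 610 CPM in EZH2i. Its means were 719 ± 269 and 594 ± 187 CPM, for a log2 fold change of -0.28 (SE 0.23, edgeR adjusted p = 0.455). EZH2i was lower in 6 of 6 numbers, and Calr passed with the block (0.00163) and without number 6 (-0.23, adjusted p = 0.0368). Without DMSO library 6 alone the log2 fold change was -0.05, and without EZH2i library 6 alone it was -0.47, neither passing.

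Pdia3 ran from 659 through 730 to 1087 CPM in DMSO and from 601 through 613 to 981 CPM in EZH2i. Library 6 was again the highest in each group, and among the rest only EZH2i library 1 (666 CPM) reached into the DMSO range. The means were 778 ± 154 and 680 ± 150 CPM, for a log2 fold change of -0.19 (SE 0.15, edgeR adjusted p = 0.402). EZH2i was lower in 6 of 6 numbers, with an adjusted p of 0.00355 with the block and 0.00374 without number 6. Leaving out DMSO library 6 alone gave -0.08 (adjusted p = 0.716), and leaving out EZH2i library 6 alone gave -0.33 (0.0347).

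Levels can be compared between genes only per length, here as CPM per kilobase of merged exons. Merged exons take in those of every annotated transcript of a gene, and the order was not checked with other lengths. B2m stood highest in DMSO at 4293 ± 670, followed by H2-K1 at 755 ± 62.5 and H2-D1 at 308 ± 44.2. Calr (249.8 ± 93.5) and Pdia3 (248 ± 49.2) came next, then Tapbp (114 ± 13.4), Tap1 (104 ± 19.5), Tap2 (72.8 ± 5.95), Nlrc5 (46.0 ± 4.04) and Erap1 (28.8 ± 5.53). The ranges over the 6 DMSO libraries overlapped for the neighbours H2-D1 and Calr, Calr and Pdia3, Tapbp and Tap1, and Tap1 and Tap2, and were apart for the other neighbours. In EZH2i, Pdia3 (217) came before Calr (206) and Tap1 (110) before Tapbp (98.2), each pair with overlapping ranges. The ranges of Tap2 (62.8) and Nlrc5 (50.7), apart in DMSO, overlapped in EZH2i.

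**Figure D3:**
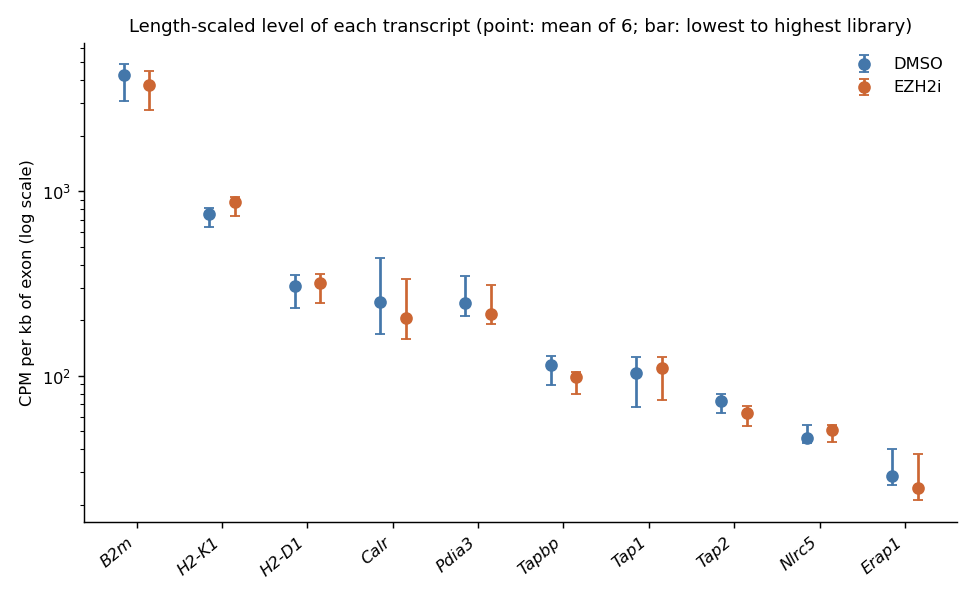
Level of the 10 genes in CPM per kilobase of exon (log axis), DMSO and EZH2i side by side, in the DMSO order; points are means of 6 libraries and bars run from the lowest to the highest library. B2m lies highest and Erap1 lowest in both groups, with DMSO means of 4293 and 28.8.

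Ratios of counts within a library need no scaling factor and show how unequal the members' differences were. The 6 pairs given were chosen after the values had been seen, so they carry no test. How often ratios of other gene pairs stand apart, or go one way in all 6 numbers, was not counted. Of single tested genes, 10.2% did not overlap over all 12 libraries, and 21.2% were higher and 19.2% lower in all 6 numbers. The ratio of H2-K1 to Tapbp was 5.39 ± 0.352 in DMSO (4.96 to 5.81) and 7.27 ± 0.181 in EZH2i (7.03 to 7.47), the only ratio of the 6 whose groups did not overlap over all 12 libraries. Number 6, at 5.79 and 7.47, lay within or next to the range of the other 5 libraries of its group here. The ratio of H2-K1 to B2m was 0.615 ± 0.130 in DMSO and 0.813 ± 0.130 in EZH2i, higher in EZH2i in 6 of 6 numbers. The ratio of Tap1 to Tap2 was 2.05 ± 0.288 in DMSO and 2.53 ± 0.291 in EZH2i, also in 6 of 6 numbers, and without number 6 its groups did not overlap (1.96 to 2.42 and 2.50 to 2.87). The ratio of H2-D1 to B2m (0.218 and 0.259) was higher in 6 of 6 numbers as well, that of H2-K1 to H2-D1 (2.81 and 3.14) in 5, and that of Calr to Pdia3 (0.904 and 0.862) in 3.

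For every member but B2m and Nlrc5, library 6 differed from the rest of its group by more than the fitted difference between the groups, and with the same sign in DMSO and EZH2i. On the log2 CPM scale, library 6 minus the mean of the other 5 was 1.04 in DMSO and 0.89 in EZH2i for Calr, 0.60 and 0.66 for Pdia3, and 0.59 and 0.77 for Erap1. For Tap1 it was -0.71 and -0.67, for H2-D1 -0.47 and -0.43, for Tapbp -0.41 and -0.36, for H2-K1 -0.29 and -0.31, and for Tap2 -0.25 and -0.28. The values were -0.08 and -0.53 for B2m and -0.11 and 0.07 for Nlrc5. In each group, library 6 lay above all others for 3 of the 10 members and below all others for 6, beside 35.7% above and 37.1% below over all tested genes in DMSO, and 36.5% and 42.8% in EZH2i.

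The lists around the members also differed in library 6, some up and some down. Of 20 tested genes of ER folding and translocation, library 6 was above all others for 17 in DMSO and 19 in EZH2i, with median differences of 0.69 and 0.79. Hspa5, the main ER chaperone, was higher in library 6 by 1.36 and 1.72, Hyou1 by 1.46 and 1.80, and Canx, the membrane-bound partner of Calr, by 0.80 and 0.92. Prkcsh went the other way (-0.25 and -0.27). Of 12 other class I genes library 6 was below all others for 10 in DMSO and 8 in EZH2i, and of 20 interferon response genes for 14 in each group. Of 15 class I regulators it was below for 7 and 10. Of 5 immunoproteasome genes it was above all others for 3 in DMSO and 4 in EZH2i. The 9 peptidases and editors were mixed, with 5 above in each group and 2 and 3 below. The CD8+ T cell markers were below all others in library 6 for 5 of 6 in DMSO and 6 of 6 in EZH2i. What part this had in the members' results was not tested; their fits without number 6 are those given above.

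**Figure D4:**
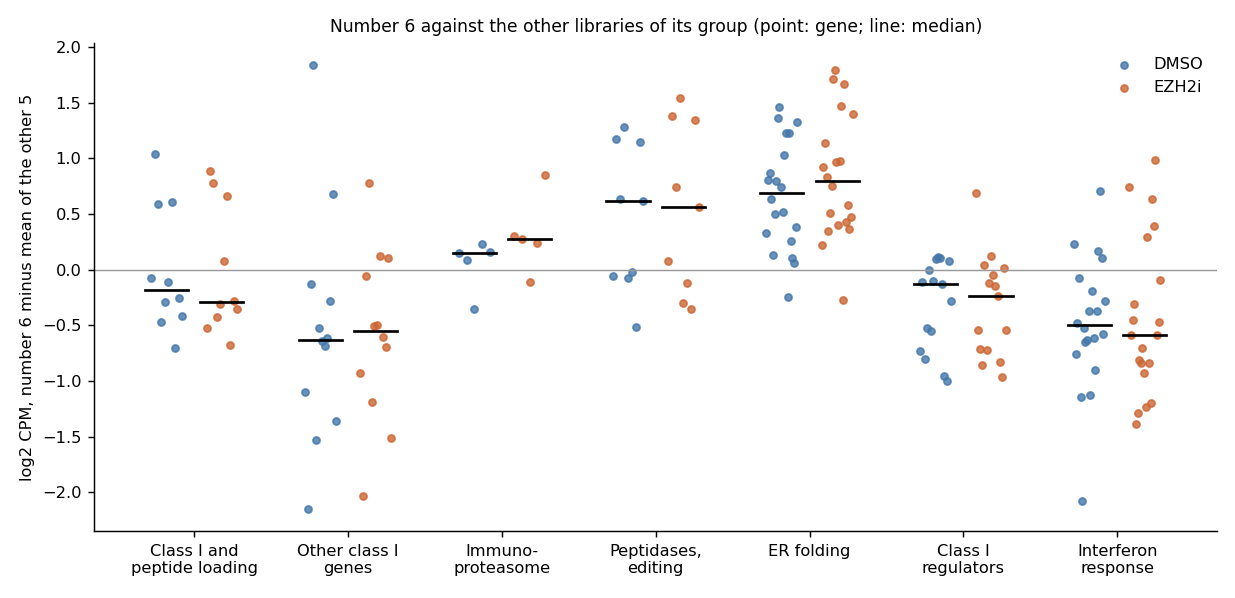
Log2 CPM of library 6 minus the mean of the other 5 libraries of its group (vertical axis), for the 10 members and 6 other gene lists, DMSO and EZH2i apart; points are genes and lines list medians. ER folding genes lie mostly above 0 (medians 0.69 and 0.79) and interferon response genes mostly below (medians -0.50 and -0.59), with members on both sides.

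The list of other class I genes holds H2 genes of chromosome 17 and the class I-like genes Cd1d1, Mr1, Hfe and Fcgrt, which lie elsewhere. Of its 21 genes 12 could be tested, and 4 rose and 0 fell (median log2 fold change 0.16), where 13.3% of all tested genes rose and 6.05% fell. With the block 6 rose and 2 fell (24.7% and 24.3% of all tested genes), and without number 6 also 6 and 2 (23.9% and 20.9%). The counts of the lists that follow are to be read beside these same shares, and none was tested against them. H2-Q4, the only abundant one of the 4 and a nonclassical heavy chain, rose from 303 ± 42.5 CPM to 428 ± 60.1 CPM (log2 fold change 0.50, SE 0.12, edgeR adjusted p = 0.00907), higher in 6 of 6 numbers. H2-T10 rose from 43.0 ± 7.80 to 57.5 ± 8.84 CPM (0.42, edgeR adjusted p = 0.0487), a call lost without any 1 of 10 of the 12 libraries (adjusted p up to 0.106) and with no filter (0.0514); leaving out DMSO 4 or EZH2i 6 kept it. H2-Q2 rose from 0.146 ± 0.133 to 1.13 ± 0.416 CPM (2.80, edgeR adjusted p = 0.00108) on 22 counts summed over DMSO and 182 over EZH2i. H2-Q10 rose from 1.24 ± 0.963 to 3.20 ± 0.986 CPM (1.40, edgeR adjusted p = 0.0249) and was lost without DMSO 1, 2 or 3 or EZH2i 4 or 5 (adjusted p up to 0.0605). These genes share sequence: 7.02% of the 75-base windows of H2-Q4, 12.5% of those of H2-Q10 and 16.05% of those of H2-T10 occur in another gene, and H2-Q6, H2-Q7 and H2-M9 are at 0 in all libraries.

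Among the genes that make and trim peptides before loading, none of the 5 immunoproteasome and activator genes passed (median -0.14); 2 fell with the block and 4 without number 6. Psmb8, a catalytic subunit of the immunoproteasome, was at 514 ± 23.8 CPM in DMSO and 442 ± 46.5 in EZH2i (log2 fold change -0.22, edgeR adjusted p = 0.0534; 0.00257 with the block). Psmb9, whose start site lies 226 bases from that of Tap1 on the opposite strand, was at 227 ± 21.9 and 235 ± 23.2 CPM (0.05, edgeR adjusted p = 0.727). Of 9 tested peptidases and editors, 1 rose and 0 fell (1 and 2 with the block, 1 and 1 without number 6): Npepps, the puromycin-sensitive cytosolic aminopeptidase, went from 78.5 ± 2.32 to 96.3 ± 4.86 CPM (0.30, edgeR adjusted p = 0.00152). Of 20 ER folding and translocation genes, 1 rose and 1 fell (median -0.10), 1 rose and 8 fell with the block, and 1 rose and 6 fell without number 6. Atf6, a sensor of the unfolded protein response, rose from 55.1 ± 6.35 to 72.5 ± 5.09 CPM (0.40, edgeR adjusted p = 0.00378). Spcs1, a signal peptidase subunit, fell from 82.7 ± 6.11 to 69.1 ± 8.68 CPM (-0.26, edgeR adjusted p = 0.0496), a call lost with upper-quartile scaling (0.123), with no filter (0.0695), with a filter of 1 CPM in 6 libraries (0.063) and without any 1 of 10 libraries (up to 0.111).

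Among 15 regulators that act at MHC promoters, 2 rose and 1 fell (median 0.05), 6 rose and 4 fell with the block, and 7 rose and 2 fell without number 6. Irf8, a transcription factor of the interferon regulatory family, rose from 57.4 ± 6.89 to 97.3 ± 5.37 CPM (log2 fold change 0.76, edgeR adjusted p = 3.07e-05). Ciita, the transactivator of MHC class II rather than class I genes, rose from 0.531 ± 0.217 to 2.15 ± 0.652 CPM (2.02, edgeR adjusted p = 0.000389). Nfyb, an NF-Y subunit, fell from 67.0 ± 2.99 to 58.6 ± 2.63 CPM (-0.19, edgeR adjusted p = 0.0266); the call was lost with upper-quartile scaling (0.119) and without DMSO 2 or EZH2i 3, 4 or 5 (up to 0.0656).

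Of 20 interferon receptor, signalling and response genes, 4 rose and 0 fell (median 0.26), and 11 rose and 2 fell both with the block and without number 6. The 4 were Socs1 and Socs3, inhibitors of cytokine signalling, Ifngr2, a chain of the interferon gamma receptor, and Gbp7, an interferon-induced GTPase. Socs1 went from 36.8 ± 10.4 to 72.0 ± 27.0 CPM (0.97, edgeR adjusted p = 0.0143), and Ifngr2 from 18.5 ± 2.54 to 31.7 ± 7.28 CPM (0.78, edgeR adjusted p = 0.00429). Gbp7 went from 232 ± 6.53 to 304 ± 38.2 CPM (0.39, edgeR adjusted p = 0.0036). Socs3 went from 49.8 ± 5.04 to 63.6 ± 10.5 CPM (0.35, edgeR adjusted p = 0.0485) and was lost without any 1 of 11 libraries (up to 0.114), all but EZH2i 6, and with RLE scaling (0.0512) or no filter (0.0531). Of the 4 PRC2 core genes none passed, while 1 rose and 3 fell with the block, as without number 6. Eed was at 72.2 ± 7.87 and 61.3 ± 6.32 CPM (-0.24, edgeR adjusted p = 0.079; 0.00214 with the block).

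**Figure D5:**
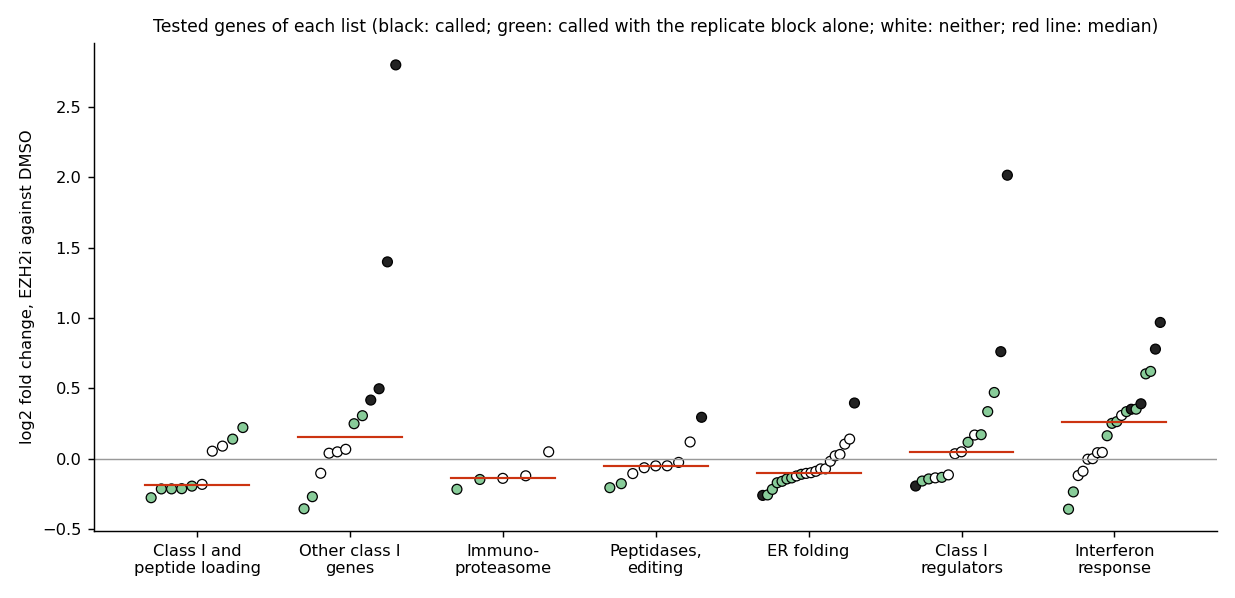
Log2 fold change of EZH2i against DMSO (all 12 libraries, no block) for every tested gene of the members and 6 other lists; black points passed an edgeR adjusted p of 0.05, green ones did so with the block alone, and red lines mark list medians. The members have no black point and lie between -0.28 and 0.22, while the 4 black points of the interferon list lie above 0.

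Markers of CD8+ T cells and of other cell types were set beside these values. Of 6 CD8+ T cell markers measured, 3 fell and 0 rose (Cd8a, Lck, Cd3g), and their summed level was 3746 to 4966 CPM in DMSO and 2821 to 4010 CPM in EZH2i. The class II and dendritic list summed to 6.70 to 10.4 CPM in DMSO and 25.2 to 31.6 CPM in EZH2i; all 5 tested genes of 8 rose (H2-Aa, H2-Ab1, H2-Eb1, Cd74, Itgax), while Flt3, Xcr1 and Siglech were at or under 0.136 CPM in both groups. The NK list summed to 48.8 to 124 and 95.7 to 306 CPM, mostly Eomes; 2 of 3 tested genes rose (Klrb1c, Eomes), Klra8 and Klra4 were at 0, and Ncr1 was at 0.0455 CPM in both groups. The B cell list summed to 19.2 to 25.2 and 14.9 to 21.9 CPM, nearly all of it Cd79b, with 0 of 1 tested gene called. The myeloid list summed to 408 to 549 and 408 to 461 CPM, mostly Ly6c2, with Itgam called higher of 3 tested, and Csf1r at 0.00876 and 0.0144 CPM. The CD4 and regulatory T cell list summed to 17.4 to 22.98 and 23.8 to 34.8 CPM, with Zbtb7b called higher of 2 tested. The erythroid and platelet list summed to 0.476 to 2.33 and 1.27 to 3.58 CPM, with Hbb-bs, Hba-a1 and Alas2 at 0. The part of these shifts in the members' values was not tested.

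For the 4 members that varied most over the 12 libraries, Calr (SD 0.43 on the log2 CPM scale), Erap1 (0.30), Tap1 (0.29) and Pdia3 (0.27), the 3 tested genes with the most similar pattern were found. Likeness is the root mean square difference between the centred log2 CPM of 2 genes over the 12 libraries, where 0 is the same pattern. Nearest to Calr were Llph (0.0558), Psme3 (0.0615) and Nop14 (0.0668), and nearest to Erap1 were Usp14 (0.0439), Ptcd3 (0.0457) and Ythdf2 (0.0462). Nearest to Tap1 were Npc2 (0.0560), Zfp41 (0.0579) and Plcg1 (0.0599), and nearest to Pdia3 were Psma4 (0.0283), Rae1 (0.0447) and Tmem248 (0.0464). In all 4 members library 6 was the highest or the lowest of its group. None of the 12 neighbours passed the edgeR test between the groups (lowest adjusted p 0.314, for Usp14). That follows from their choice by likeness to members that did not pass, and is no separate result.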

How the data were processed

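The authors deposited raw read counts per gene symbol, 1 table of 24421 symbols per library. Per the labels, polyadenylated RNA (500 ng of total RNA) was made into stranded TruSeq libraries and read as 75-base single-end reads on a NextSeq 500. Per the submitters' processing notes, reads were checked with FastQC 0.11.7 and handled with Trimmomatic 0.38, TopHat2 2.1.1 and SAMtools 1.9, the counter was featureCounts, and the build was GRCm38 (mm10); the sources used here do not give the annotation, the strand setting or the handling of reads with several matches.

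The analysis used edgeR 4.0.16, on limma 3.58.1 and R 4.3.3: filterByExpr (11727 genes kept), TMM scaling, and the two-sided quasi-likelihood test on all 12 libraries with the group alone. A call is a p under 0.05 after Benjamini-Hochberg adjustment over all tested genes. An SE is the log2 fold change over the square root of F, CPM are counts over the TMM-scaled library size, and log2 CPM carry a prior count of 2. No library pair of a group agreed within sampling noise (chi-square per degree of freedom at least 4.94). The deviations of same-numbered libraries correlated with r = 0.213, 0.445, 0.286, 0.527, 0.317 and 0.847 for numbers 1 to 6. All passed the limit of 0.1, so the number was also fitted as a block, as an alternative to the main test with the group alone. The labels do not say that the numbers pair libraries. The deviations were taken from group means that include library 6. Without number 6 the r values were 0.223, 0.181, 0.165, 0.341 and 0.0371 for numbers 1 to 5, the last under that limit. On simulated counts of 11727 genes, the test without the block recovered 38 of 67 genes changed 1.5-fold, 60 of 67 changed 2-fold and 64 of 66 changed 4-fold. It made 7 false calls. Changes as small as those of the members were not simulated. The simulated libraries were drawn independently, with no shift of library 6 and no pairing, so recovery and false calls in these data may differ. Alternatives were the replicate block, RLE and upper-quartile scaling, other filters, DESeq2 1.42.0, and leaving out libraries. Sequences are from RefSeq (GRCm38.p6), and lengths, overlaps and shared windows from GENCODE M21. The members and lists were chosen with earlier results of these data known. All 10 members are named, with up to 4 called genes of each other pathway list by size of change, or the smallest p where none was called; Psmb9, Hspa5, Hyou1 and Canx and the markers named were added after their values were seen. One gene of the regulator list is not reported here and was left out of that list's counts.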

Additional observations from a re-analysis of the deposited data

Results flagged for a closer look

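In the groups of 6 libraries, 13 of 52 groups of a gene's CPM values had an end value whose gap to the nearest other took more of the range than Dixon's limit for 6 values allows; chance flags about 1 in 20 groups. Of the 20 groups of the members, 11 were so marked, and 11 of the 13 were library 6. The groups share the same libraries and are not independent, and the rule was not applied to all tested genes. Over all tested genes, library 6 lay above all others of its group for 35.7% in DMSO and 36.5% in EZH2i. It lay below all others for 37.1% and 42.8%, so the marks cannot be read as particular to these genes. Library 6 was far above the others for Erap1 (291 CPM in DMSO, others 187 to 200; 276 in EZH2i, others 155 to 173), Calr (1253 in DMSO, others 485 to 651; 959 in EZH2i, others 456 to 610) and Pdia3 (1087 in DMSO, others 659 to 737; 981 in EZH2i, others 601 to 666). EZH2i library 6 was far below the others for H2-K1 (2156 CPM, others 2547 to 2754), H2-D1 (641, others 815 to 914), Tap1 (403, others 597 to 694) and Tapbp (289, others 362 to 381). Among the other genes, DMSO library 6 was high for H2-Q10 (3.10 CPM, others 0.389 to 1.33). DMSO library 4 was high for Nlrc5 (459 CPM, others 365 to 386) and low for Socs3 (40.3 CPM, others 49.7 to 54.7).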

How the results depend on the processing

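No scaling, filter or tool changed a member's direction, but scaling changed the sizes. The TMM factors ran from 0.967 to 0.992 in DMSO and from 1.01 to 1.04 in EZH2i. Upper-quartile scaling shifted the log2 fold changes of all tested genes up by a median of 0.061. Under it H2-K1 went from 0.22 to 0.28 and Nlrc5 from 0.14 to 0.20, while Tap2 and Tapbp each went from -0.21 to -0.15. Leaving out 1 library gave log2 fold changes of -0.017 to 0.12 for H2-D1 and -0.0089 to 0.18 for Tap1, neither called; both lowest values are those without DMSO replicate 6, and the highest those without EZH2i replicate 6. The 2266 genes called became 5741 with the replicate block, 5270 without replicate 6 and 5907 with both of these; leaving out 1 library gave 1732 (EZH2i 3) to 4079 (EZH2i 6). Members called higher, 0 in the main analysis, numbered 2 with the replicate block and 1 each without replicate 6, with that and the block, with upper-quartile scaling and with DESeq2; leaving out 1 library gave 0 to 1 (EZH2i 6). Members called lower, also 0, numbered 5 with the replicate block, without replicate 6 and with both, and 1 with RLE scaling, no filter and DESeq2; leaving out 1 library gave 0 to 2 (DMSO 6: Tap2, Tapbp; EZH2i 6: Erap1, Pdia3). The member called with no filter was Tap2 (edgeR adjusted p = 0.0485), where 1787 of 16593 genes were called higher and 645 lower. For the other settings that called a member, the shares of all genes are given above. The cause of these changes in the counts was not tested. Over the members' values, 169 kept direction and call, 29 gained a call and 2 reversed. As no member was called in the main analysis, a kept call here means still not called. Of the 169, 113 came from leaving out 1 library, as did 5 of the 29. Those 5 all came from leaving out a library numbered 6. Of the 6 ratios, none moved beyond the spread of the libraries without replicate 6. With few counts, H2-Q2 is limited by depth; the members are not.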
